A study of Mus musculus with 6 samples.

Results

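Lysosomes are the acidic compartments in which cells break down proteins, glycans and lipids, and proximal tubule cells of the kidney send large amounts of filtered protein to them. The vacuolar H+-ATPase (V-ATPase) acidifies the lysosome by coupling ATP hydrolysis in its V1 sector to proton movement through its membrane-embedded V0 sector. Soluble hydrolases do the digestion, membrane proteins protect the compartment and move its products, and the transcription factor TFEB is known to switch on many of these genes together. The list described here held 39 mouse genes of this system: 14 V-ATPase subunits, most of them expressed in many cell types, 16 hydrolases, 2 soluble lipid-handling proteins, 6 membrane proteins and Tfeb. The members were taken by gene symbol, and 36 of the 39 matched 1 transcript cluster each, out of 19505 genes with a symbol on the array. Atp6v0c, Ctsd and Glb1 did not match a named cluster and were not analysed here.

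The tissue was renal tubular epithelium, freed with collagenase from mouse kidneys that had undergone ischemia for 30 min and then reperfusion for 24 h. One group of 3 arrays came from mice given PT2385, an inhibitor of the hypoxia-inducible factor HIF-2α, in doses of 10 mg/kg, the first 16 h ahead of surgery and the others 1, 8 and 20 h afterwards (the protocol writes PT2384 for the injected compound). The other group of 3 arrays came from vehicle-treated mice with the same injury, and uninjured kidneys were not analysed here. Strain, age and sex are not given in the labels, the IRPT samples were read as the PT2385 arm and the IR samples as the vehicle arm, and no label states whether each array is a different animal. The p-values therefore cover only the spread among these 6 arrays, and that spread may be technical. The study's title is about Atp4a, a proton pump of another family, as a hypoxia-regulated target, and the comparison asked here was how lysosomal and V-ATPase transcripts differed between the arms.

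Signals are log2 values, so a difference of 1 is a 2-fold change, and they compare arrays for 1 gene but not 1 gene with another. Array medians over all clusters were 6.24 to 6.25 in the PT2385 group and 6.20 in each vehicle array. Y-linked transcripts separated the groups: Eif2s3y, a translation factor gene, averaged 3.21 ± 0.16 in PT2385 arrays and 9.20 ± 0.10 in vehicle arrays, and Uty, a demethylase gene, averaged 2.99 ± 0.23 in PT2385 arrays and 8.66 ± 0.09 in vehicle arrays (SD, n = 3 each). Kdm5d, another demethylase gene, averaged 3.32 ± 0.07 in PT2385 arrays and 6.47 ± 0.12 in vehicle arrays (SD, n = 3 each). Treatment and sex therefore cannot be told apart in any difference below. Markers of nephron segments also differed: 9 of 9 loop of Henle and distal tubule markers and 13 of 14 intercalated cell markers had higher means in the PT2385 group. Proximal tubule markers were present in every array, with a mean signal of 10.6 to 11.4 in PT2385 arrays and 11.0 to 11.2 in vehicle arrays over 13 genes. Of these 13, 8 had lower and 5 higher means (median -0.10), and 1 passed the threshold, Slc22a6, an organic anion transporter gene, which fell by 0.97 (adjusted p = 0.00572). Cldn19, a tight junction gene of the thick ascending limb, rose by 1.24 (adjusted p = 0.0259). Higher means were also found for 7 of 7 principal cell, 5 of 7 endothelial and 6 of 6 fibroblast markers. Of these, 0 passed the threshold in limma. At an unadjusted p under 0.05, 5, 0 and 2 of them were higher, against 7.94% of all clusters. At the same level, 9 of 9 loop and distal and 7 of 14 intercalated cell markers were higher. Of the 13 proximal tubule markers, 3 were lower at that level, against 6.54% of all clusters. The smallest p values were at Scnn1b (0.55, adjusted p = 0.0535) and Aqp2 (1.10, adjusted p = 0.0552) for principal cells and at Slc4a9 (0.64, adjusted p = 0.0935) and Aqp6 (0.90, adjusted p = 0.0959) for intercalated cells. They were at Plvap (0.34, adjusted p = 0.358) and Tek (0.20, adjusted p = 0.598) for endothelial cells and at Lum (0.45, adjusted p = 0.190) and Dcn (0.51, adjusted p = 0.325) for fibroblasts. Lum, with means of 4.19 in PT2385 arrays and 3.74 in vehicle arrays, lay under the highest array median of the negative controls (4.47). The vehicle mean of Tek (7.44) lay under the brightest background control value (7.47). In such bulk isolates, fewer cells of a type and less RNA per cell cannot be told apart.

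Most lysosomal and V-ATPase genes had lower means in the PT2385 group, by small amounts. Of 36 measured members, 31 had a lower mean and 5 a higher one, with a median difference of -0.14, whereas 46.5% of all 22206 clusters were lower and their median difference was 0.02. Among the 10378 clusters at least as bright as the dimmest member, 58.1% were lower, with a median of -0.04. These clusters averaged 8.2 to 8.3 in each array, against 9.0 to 9.3 for the members, so they are not matched for brightness. The split of the members moved with the scaling, with 34 lower after centring each array on its median and 26 lower after quantile normalization or cyclic loess. In limma's moderated test, adjusted over all clusters by the Benjamini-Hochberg method at a threshold of 0.05, 1 member passed, the sulfatase gene Galns, which was lower. Over all clusters 0.829% passed. At an unadjusted p under 0.05, 10 members were lower and 1 was higher, against 6.54% of all clusters lower and 7.94% higher. The 3 PT2385 values all lay below the 3 vehicle values in 10 members (27.8%), against 9.13% of all clusters, and all lay above them in 1 member, against 11.6% of all clusters. Among the clusters at least as bright as the dimmest member these shares were larger on the lower side, with 10.5% lower at an unadjusted p under 0.05 and 14.5% with all PT2385 values below all vehicle values.

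**Figure D1:**
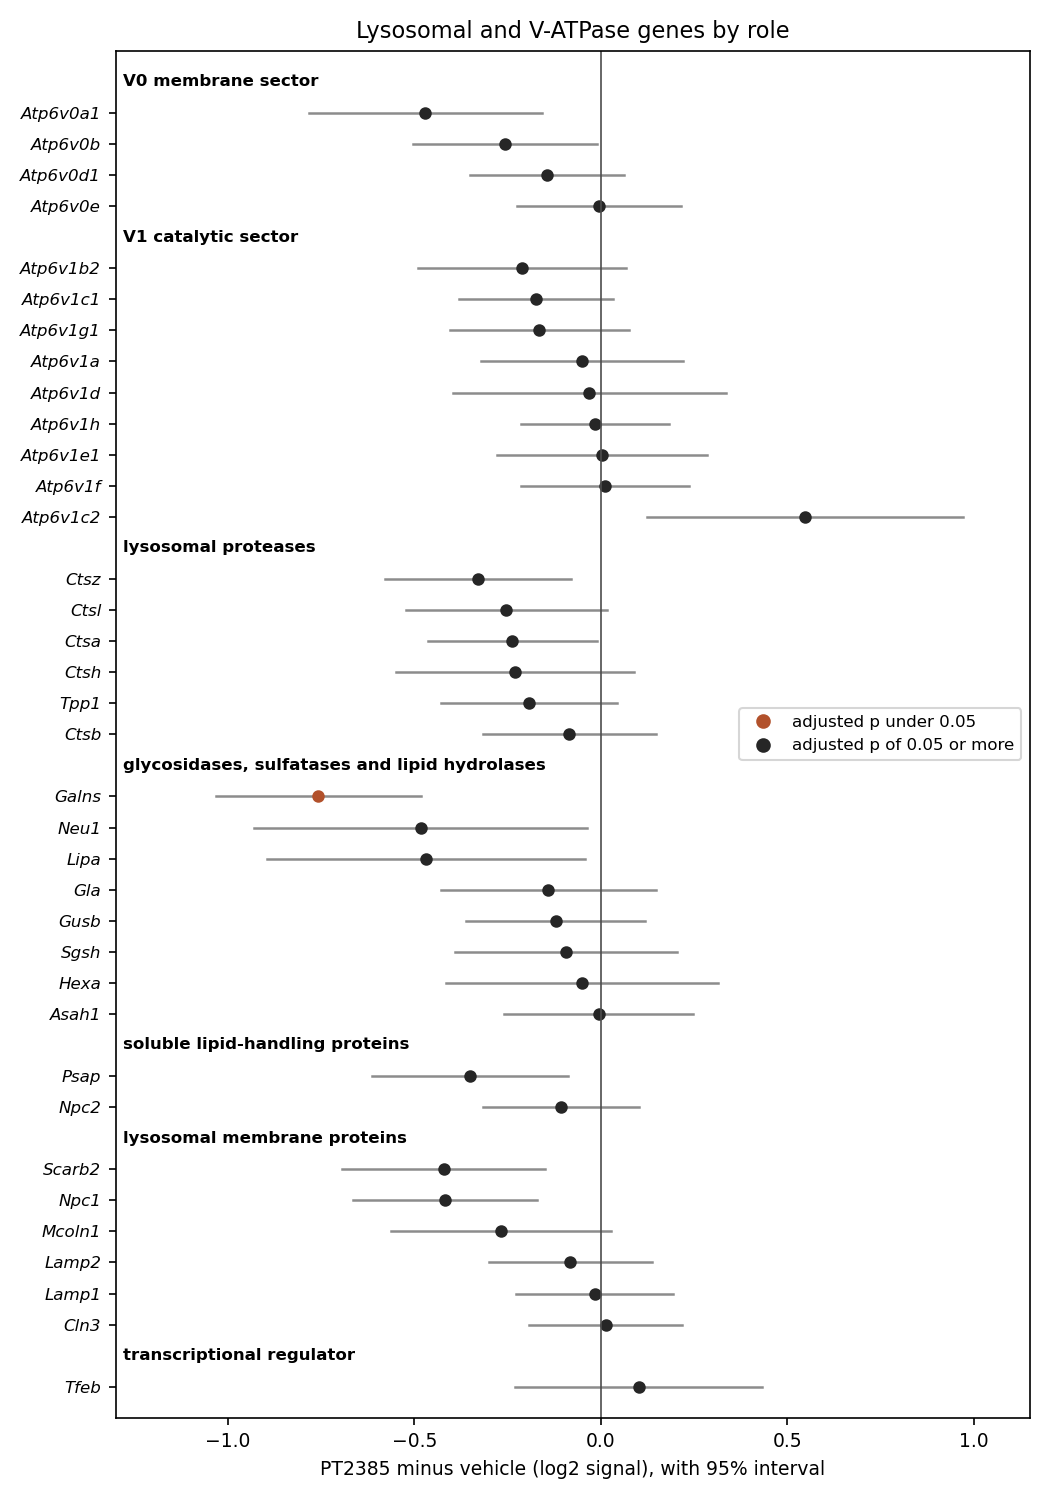
Difference of each measured member, PT2385 minus vehicle in log2 signal (x axis), with its 95% interval from the limma fit, grouped by role down the page. Galns, at -0.76, is the single point with an adjusted p under 0.05, all 14 hydrolases lie left of 0, and Atp6v1c2, at 0.55, lies farthest to the right.

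The hydrolases, which cleave the cargo, were lower as a group of values: 14 of 14 measured had a lower mean, with a median of -0.21 and a range from -0.76 to -0.01. Asah1 turned positive under quantile normalization and cyclic loess, and Asah1, Hexa and Sgsh changed sign in at least 1 fit without 1 array. Galns encodes the sulfatase that removes 6-sulfate groups from keratan sulfate and chondroitin sulfate, and its loss in humans causes Morquio syndrome type A. Its cluster, on chromosome 8, had 7.12, 7.40 and 7.43 in PT2385 arrays, against 7.94, 8.09 and 8.20 in vehicle arrays. All 3 PT2385 values lay below all 3 vehicle values, with a gap of 0.51 between the groups. Galns fell by 0.76 on the log2 scale (SE 0.12, limma adjusted p = 0.0347), a ratio of 0.592. The PT2385 mean of Galns (7.32) was under the brightest background control value (7.47). Its call was lost without PT2385 replicate 1 (adjusted p = 0.0552) or replicate 2 (adjusted p = 0.144) and without vehicle replicate 1 (adjusted p = 0.0733), replicate 2 (adjusted p = 0.133) or replicate 3 (adjusted p = 0.117), while the difference stayed between -0.83 and -0.66.

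Neu1 and Lipa had the next largest differences among the hydrolases, and in both the PT2385 arrays were spread widely. Neu1 encodes the sialidase that trims sialic acids from glycoproteins and glycolipids. It had 9.23, 8.81 and 8.45 in PT2385 arrays, against 9.54, 9.26 and 9.13 in vehicle arrays. PT2385 replicate 1 lay within the vehicle range and the other two PT2385 arrays below it, a difference of -0.48 (SE 0.20, adjusted p = 0.311). Lipa encodes lysosomal acid lipase, which frees fatty acids and cholesterol from neutral lipids. It had 10.88, 10.21 and 10.11 in PT2385 arrays, against 10.88, 10.90 and 10.83 in vehicle arrays. The vehicle arrays lay close together, PT2385 replicate 1 was among them and the other two PT2385 arrays were well below, a difference of -0.47 (SE 0.19, adjusted p = 0.306). Without PT2385 replicate 1 the difference of Lipa was -0.71 and passed the threshold (adjusted p = 0.0273). The same array had the highest mean deviation of the loop and distal markers (0.954, against 0.459 and 0.119 in PT2385 replicates 2 and 3) and of the proximal tubule markers (0.357, against -0.0968 and -0.469), and the part of these in the result was not tested.

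The other glycosidases, sulfatases and lipid hydrolases differed by less. Gla, the alpha-galactosidase that is lacking in human Fabry disease, had 7.01, 7.11 and 7.43 in PT2385 arrays, against 7.32, 7.40 and 7.24 in vehicle arrays, so the groups overlapped (difference -0.14, adjusted p = 0.640). Gusb, the beta-glucuronidase gene, known in mouse kidney for its induction by androgens, averaged 6.91 ± 0.15 in PT2385 arrays and 7.03 ± 0.04 in vehicle arrays (SD, n = 3 each; difference -0.12, adjusted p = 0.627). Sgsh, which removes sulfate from heparan sulfate, had 6.68, 6.90 and 6.64 in PT2385 arrays, against 6.61, 6.87 and 7.02 in vehicle arrays. Its groups overlapped (difference -0.09, adjusted p = 0.778). Hexa, the alpha subunit gene of beta-hexosaminidase, differed by -0.05 (95% interval -0.41 to 0.32). Asah1, the acid ceramidase gene, differed by -0.01 (95% interval -0.26 to 0.25). The means of Gla, Gusb and Sgsh in both groups lay under the brightest background control value.

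Among the lysosomal proteases, 6 of 6 measured had a lower mean and 0 passed the threshold in limma. At an unadjusted p under 0.05, 2 (33.3%) were lower, against 10.5% of the clusters at least as bright as the dimmest member. Ctsz, a carboxypeptidase of the cathepsin family, had 9.19, 9.06 and 9.17 in PT2385 arrays, against 9.63, 9.47 and 9.32 in vehicle arrays. The groups did not overlap, and the difference was -0.33 (SE 0.11, adjusted p = 0.233). Ctsa, the protective protein that holds Neu1 and beta-galactosidase in a stable complex, had 9.71, 9.58 and 9.63 in PT2385 arrays, against 9.88, 9.77 and 9.98 in vehicle arrays. Here too the groups were apart, by 0.06, with a difference of -0.24 (SE 0.10, adjusted p = 0.326). Ctsb, a major cysteine protease of the lysosome, had 11.84, 11.99 and 12.08 in PT2385 arrays, against 12.06, 11.98 and 12.12 in vehicle arrays. Its groups overlapped (difference -0.08, adjusted p = 0.734). The cysteine proteases Ctsl (-0.25) and Ctsh (-0.23) and the tripeptidyl peptidase Tpp1 (-0.19) had adjusted p between 0.370 and 0.491.

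Both soluble lipid-handling genes had lower means. Psap encodes prosaposin, the precursor of the saposins that present sphingolipids to their hydrolases. It had 11.50, 11.22 and 11.16 in PT2385 arrays, against 11.67, 11.71 and 11.56 in vehicle arrays. The groups did not overlap, with a gap of 0.06 and a difference of -0.35 (SE 0.12, adjusted p = 0.231). Npc2, which passes cholesterol to Npc1, differed by -0.11 (SE 0.09, adjusted p = 0.623).

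Of the 6 lysosomal membrane proteins, 5 had lower means and 0 passed the threshold in limma. At an unadjusted p under 0.05, 2 (33.3%) were lower, against 10.5% of the clusters at least as bright as the dimmest member. Npc1, the membrane protein that exports cholesterol, had 6.29, 6.55 and 6.56 in PT2385 arrays, against 6.82, 6.95 and 6.88 in vehicle arrays. Its groups were 0.26 apart, with a difference of -0.42 (SE 0.11, adjusted p = 0.148), and both means lay within the range of the background controls. Scarb2, also called LIMP-2, which carries glucocerebrosidase to the lysosome, had 8.15, 8.31 and 8.50 in PT2385 arrays, against 8.79, 8.83 and 8.61 in vehicle arrays. The groups did not overlap and the difference was -0.42 (SE 0.12, adjusted p = 0.181). Mcoln1, the calcium channel TRPML1, had 9.11, 8.67 and 8.72 in PT2385 arrays, against 9.15, 9.09 and 9.07 in vehicle arrays. PT2385 replicate 1 again lay among the vehicle values (difference -0.27, adjusted p = 0.385).

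The membrane glycoproteins that coat the lysosome had small differences. Lamp1 differed by -0.02, with a 95% interval from -0.23 to 0.19. Lamp2 had 12.42, 12.22 and 12.27 in PT2385 arrays, against 12.36, 12.36 and 12.43 in vehicle arrays. The groups overlapped, with a difference of -0.08 and a 95% interval from -0.30 to 0.14. Cln3, the membrane protein affected in human juvenile Batten disease, differed by 0.01 (95% interval -0.19 to 0.22). Quantile normalization and cyclic loess turned the sign of Lamp1, and median centring that of Cln3.

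**Figure D2:**
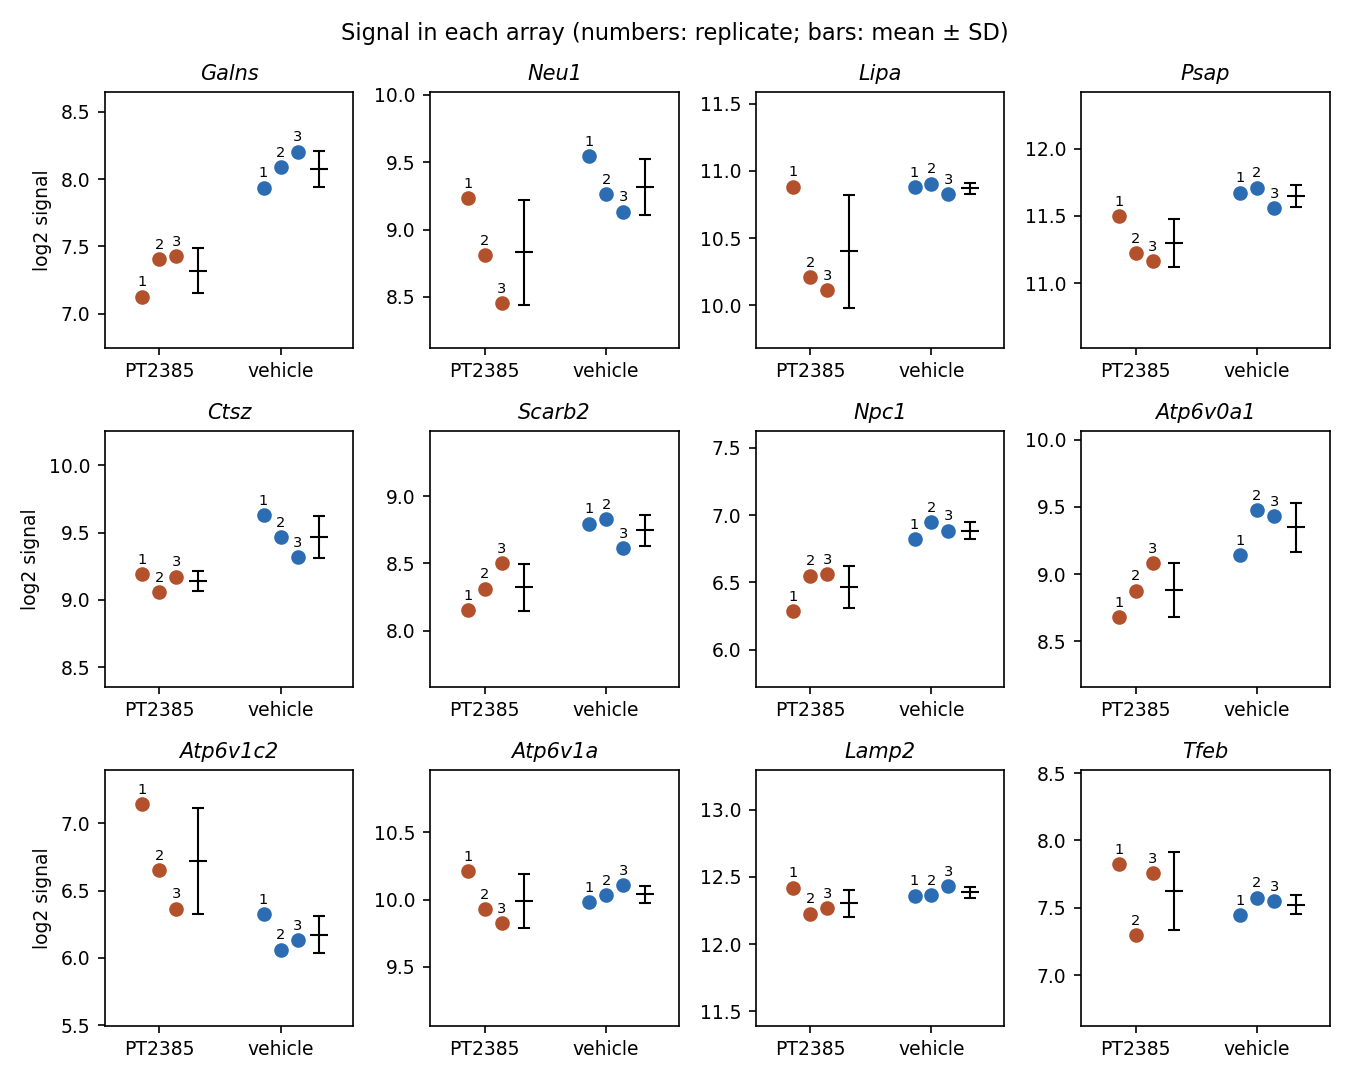
Log2 signal (y axis, the same span in every panel) of 12 members in each PT2385 and vehicle array, with the replicate number above each point and the mean ± SD beside each group. Galns, Psap, Ctsz, Scarb2, Npc1 and Atp6v0a1 have all PT2385 points below the vehicle points, Atp6v1c2 has them above, and in Neu1 and Lipa PT2385 replicate 1 sits among or near the vehicle points.

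V-ATPase subunits of the V0 sector, which carries the protons, had lower means in 4 of 4 measured genes, with a median of -0.20 and 0 past the threshold in limma. Atp6v0e, the smallest of these differences, turned positive under quantile normalization and cyclic loess. Atp6v0a1 encodes the a1 isoform of the large membrane subunit, through which protons enter and leave the pump. It had 8.68, 8.88 and 9.08 in PT2385 arrays, against 9.14, 9.47 and 9.43 in vehicle arrays. The groups were 0.06 apart, and the difference was -0.47 (SE 0.14, adjusted p = 0.190). Atp6v0b, a proteolipid of the rotating ring, had 8.31, 8.08 and 8.19 in PT2385 arrays, against 8.56, 8.47 and 8.32 in vehicle arrays. Its groups touched without crossing, with a gap of 0.01 and a difference of -0.26 (SE 0.11, adjusted p = 0.328). Atp6v0d1, which links the ring to the central stalk, had 8.82, 8.81 and 8.91 in PT2385 arrays, against 9.05, 8.95 and 8.98 in vehicle arrays. These groups also did not overlap (difference -0.14, adjusted p = 0.508). Atp6v0e, a small membrane subunit, had 9.69, 9.58 and 9.63 in PT2385 arrays, against 9.72, 9.67 and 9.52 in vehicle arrays, with a difference that rounded to 0 (95% interval -0.22 to 0.22).

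In the V1 sector, which hydrolyses ATP, 6 of 9 subunits had lower means and 3 had higher ones, with a median of -0.03 and 0 past the threshold in limma. The catalytic subunit gene Atp6v1a had 10.21, 9.93 and 9.82 in PT2385 arrays, against 9.98, 10.03 and 10.10 in vehicle arrays. PT2385 replicate 1 was above all vehicle arrays and the other two PT2385 arrays were below them (difference -0.05, 95% interval -0.32 to 0.22). Atp6v1b2, which forms the ATP-binding head together with the catalytic subunit, had 10.30, 9.92 and 10.14 in PT2385 arrays, against 10.32, 10.46 and 10.23 in vehicle arrays. The groups overlapped, with a difference of -0.21 (adjusted p = 0.471). Atp6v1c1, the C1 isoform of the collar subunit that joins V1 to V0, had 9.68, 9.69 and 9.68 in PT2385 arrays, against 9.95, 9.83 and 9.80 in vehicle arrays. Those groups did not overlap, by a gap of 0.11 (difference -0.17, adjusted p = 0.421).

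The stalk subunit genes Atp6v1d (-0.03), Atp6v1f (0.01) and Atp6v1e1 (0.0034) and the regulatory subunit gene Atp6v1h (-0.02) had adjusted p between 0.950 and 0.993, and Atp6v1g1 of the peripheral stalk differed by -0.16 (adjusted p = 0.509). Atp6v1d, Atp6v1e1, Atp6v1f, Atp6v1h and Atp6v0e changed sign under at least 1 other scaling or with array weights, so the counts of lower and higher subunits hold for the deposited scale only. The median of all 13 V-ATPase subunits, -0.05 on that scale, was -0.016 after quantile normalization and -0.00017 with cyclic loess.

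Atp6v1c2, the C2 isoform, stood on the other side from its C1 counterpart. Unlike the other subunits in the list it is known for expression in few tissues, among them kidney and lung. It had 7.14, 6.65 and 6.36 in PT2385 arrays, against 6.33, 6.06 and 6.13 in vehicle arrays. The PT2385 values all lay above the vehicle values, by a gap of 0.04, with a difference of 0.55 (SE 0.19, adjusted p = 0.243). The signal was dim, with both group means under the brightest background control value. Atp6v1c2 was highest in PT2385 replicate 1, which also had the highest mean deviation of the 14 intercalated cell markers (0.481, against 0.153 and -0.0135 in PT2385 replicates 2 and 3 and -0.284 to -0.152 in vehicle arrays). The part of these cells in the result was not tested.

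V-ATPase genes outside the list had mostly higher means in the PT2385 group. Of 11 other subunit isoforms and accessory proteins, 10 were higher, with a median of 0.13, and 0 passed the threshold in limma. At an unadjusted p under 0.05, 2 (18.2%) were higher, against 7.94% of all clusters. These counts are for the deposited scale only, since the other scalings were not examined for these genes. Tcirg1, Atp6v0e2, Atp6v1e2 and Atp6v1g2 were dim, with both group means under the brightest background control value. Atp6v1b1, the B1 isoform of intercalated cells, averaged 9.42 ± 0.48 in PT2385 arrays and 8.81 ± 0.09 in vehicle arrays (difference 0.61, adjusted p = 0.251, SD, n = 3 each). Atp6v0d2, the d2 isoform of renal and osteoclast pumps, averaged 10.20 ± 0.26 in PT2385 arrays and 9.78 ± 0.15 in vehicle arrays (difference 0.42, adjusted p = 0.256, SD, n = 3 each). These 2 genes, with Atp6v0a4 (0.13) and Atp6v1g3 (0.20), are also in the intercalated cell list, whose mean signal was 8.26 to 8.76 in PT2385 arrays and 7.99 to 8.12 in vehicle arrays. The accessory protein genes Atp6ap1 (0.04) and Atp6ap2 (0.02), which assist assembly of the pump, differed by less than their standard errors (0.10 and 0.15). Whether the 2 sets of V-ATPase genes differ from each other was not tested.

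**Figure D3:**
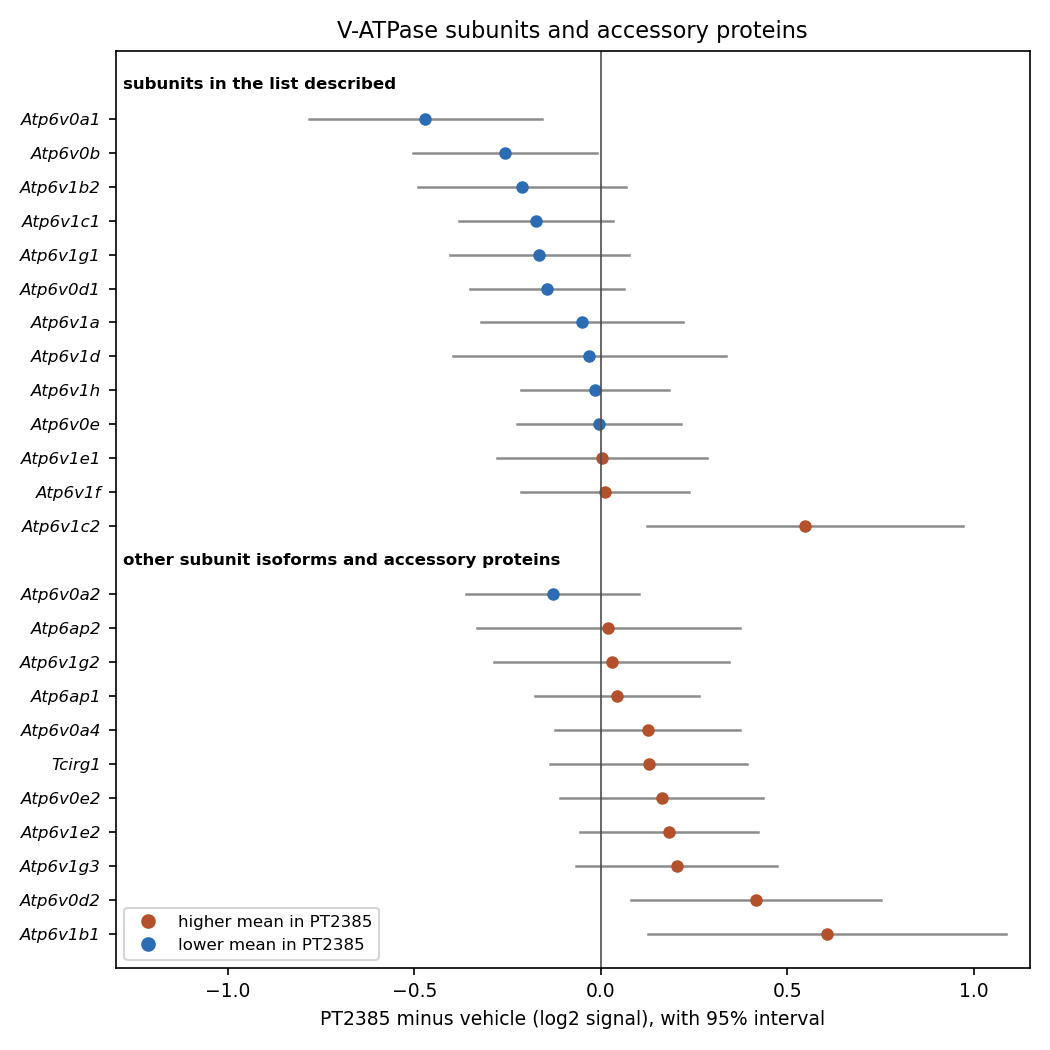
Difference in log2 signal, PT2385 minus vehicle, with its 95% interval, for 13 V-ATPase subunits of the list (upper block) and 11 other isoforms and accessory proteins (lower block). Points of the upper block lie mostly left of 0 down to -0.47 for Atp6v0a1, and 10 of the 11 points of the lower block lie right of 0, up to 0.61 for Atp6v1b1.

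Tfeb itself, the regulator of the system, differed by less than the SD of its PT2385 arrays (0.29). It had 7.82, 7.29 and 7.76 in PT2385 arrays, against 7.44, 7.57 and 7.55 in vehicle arrays. PT2385 replicates 1 and 3 were above all vehicle arrays and replicate 2 was below them, a difference of 0.10 (95% interval -0.23 to 0.43, adjusted p = 0.780) that became -0.06 with array weights. Among 19 measured relatives of Tfeb and genes of the nutrient-sensing kinase complex mTORC1 at the lysosome, 0 passed the threshold in limma. At an unadjusted p under 0.05, 4 (21.1%) were lower and 1 (5.26%) higher. Clusters at least as bright as the dimmest member had 10.5% lower and 6.92% higher at that level. Other scalings were not examined for the genes outside the list. The smallest p values belonged to Mitf, a transcription factor of the same family (0.39, adjusted p = 0.144), and Mtor, the kinase gene (-0.36, adjusted p = 0.157). The vehicle mean of Mitf (7.37) was under the brightest background control value (7.47).

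Some promoters of the listed genes hold the site that TFEB is known to bind, the CLEAR element. RefSeq promoter windows (GRCm38.p6, from 250 bases before to 50 bases after each annotated start) were found for 30 of the 39 members, in 37 windows, and Galns and Npc1 were among the 9 without one. The windows were searched for the 8-letter core TCACGTGA of the element and for the 6-letter E-box CACGTG inside it. Both read the same on either strand, so each site counts once, and every CLEAR core is also an E-box. The CLEAR core was in 8 of the 30 members (26.7%), against 1.12% of all 27025 genes with a window and 1.41% of protein-coding genes. The E-box was in 13 members (43.3%), against 8.09% of all genes and 8.91% of protein-coding genes. The element is known from promoters of lysosomal genes, so a higher share in this list was to be foreseen and is no test. The 8 members with the core were Atp6v0d1, Atp6v0e, Atp6v1a, Ctsa, Ctsd, Gla, Cln3 and Mcoln1. The bases before the start are shown for 3 members with the core in that stretch, chosen across the roles, and for 2 members without it whose arrays did not overlap. They are on the strand of the gene in RefSeq, with the core or E-box in capitals.

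Gla, chrX:134601006-134601255, minus strand, with cores that begin 228 and 195 bases before the start: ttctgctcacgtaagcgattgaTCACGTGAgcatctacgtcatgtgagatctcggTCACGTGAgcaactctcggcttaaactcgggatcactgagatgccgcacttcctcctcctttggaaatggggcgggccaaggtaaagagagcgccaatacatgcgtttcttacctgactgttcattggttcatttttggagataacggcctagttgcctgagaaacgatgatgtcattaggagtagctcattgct
Mcoln1, chr8:3500269-3500518, plus strand, with an E-box that begins 71 bases and a core that begins 46 bases before the start: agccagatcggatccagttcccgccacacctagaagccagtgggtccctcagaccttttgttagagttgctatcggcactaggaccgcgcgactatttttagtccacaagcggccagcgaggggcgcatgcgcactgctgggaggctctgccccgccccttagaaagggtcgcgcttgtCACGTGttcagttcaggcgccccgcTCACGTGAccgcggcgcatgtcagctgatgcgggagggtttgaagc
Atp6v1a, chr16:44139260-44139509, minus strand, with a core that begins 132 bases before the start: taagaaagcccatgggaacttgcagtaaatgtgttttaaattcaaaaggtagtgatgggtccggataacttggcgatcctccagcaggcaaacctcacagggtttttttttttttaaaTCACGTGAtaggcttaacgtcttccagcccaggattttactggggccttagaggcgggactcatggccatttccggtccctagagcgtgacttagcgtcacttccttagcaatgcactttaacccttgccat
Atp6v0a1, chr11:101010148-101010397, plus strand, with neither motif: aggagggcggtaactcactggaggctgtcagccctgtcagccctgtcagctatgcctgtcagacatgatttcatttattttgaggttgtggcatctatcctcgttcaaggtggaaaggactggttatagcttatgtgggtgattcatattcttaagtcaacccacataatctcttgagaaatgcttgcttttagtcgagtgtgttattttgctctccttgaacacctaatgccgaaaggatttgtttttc
Scarb2, chr5:92505658-92505907, minus strand, with neither motif: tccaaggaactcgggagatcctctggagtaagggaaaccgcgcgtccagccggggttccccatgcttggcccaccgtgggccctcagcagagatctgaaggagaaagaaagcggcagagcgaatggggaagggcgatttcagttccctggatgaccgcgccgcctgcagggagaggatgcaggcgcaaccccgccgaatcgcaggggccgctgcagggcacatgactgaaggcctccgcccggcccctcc

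Differences are given by motif as a description, with no test. The 7 measured members with the CLEAR core had a median difference of -0.14, from -0.27 (Mcoln1) to 0.01 (Cln3), with 6 lower. The 20 measured members with a window and no core had a median of -0.11, from -0.48 (Neu1) to 0.55 (Atp6v1c2), with 16 lower. Atp6v0a1 and Scarb2, shown above without either motif, had differences of -0.47 and -0.42, and Gla, with 2 cores, had -0.14. Atp6v0a1 and Scarb2 were picked for groups that did not overlap, so these values do not compare members with and without the core. A match describes these letters only, and binding of TFEB was not measured.

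The shares of lysosomal genes outside the list are read against the bright clusters, those at least as bright as the dimmest member, of which 58.1% had lower means and 10.5% were lower at an unadjusted p under 0.05. That cut, 6.45, leaves out clusters as dim as some of these genes. Their lowest means were 5.29 among the other hydrolases and 6.38 among the other membrane proteins. Other scalings were not examined for genes outside the list, so their counts are for the deposited scale only. Of 26 other hydrolases measured, 18 (69.2%) had lower means (median -0.13), with 6 (23.1%) lower at an unadjusted p under 0.05 and 0 past the threshold in limma. The smallest p values were at Prcp, a carboxypeptidase gene (-0.67, adjusted p = 0.106), and Man2b1, the lysosomal alpha-mannosidase gene (-0.47, adjusted p = 0.113). Of 18 other membrane proteins, 12 (66.7%) had lower means (median -0.15), with 2 (11.1%, near that background) lower and 1 higher at an unadjusted p under 0.05 and 0 past the threshold. Slc36a1, a proton-coupled amino acid transporter gene (-0.45, adjusted p = 0.197), and Abcb9, a lysosomal peptide transporter gene (0.32, adjusted p = 0.298), had the smallest p values there. The vehicle mean of Abcb9 (7.21) was under the brightest background control value (7.47).

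Genes that deliver enzymes or cargo to the lysosome had shares of lower means not far above the 58.1% of bright clusters, on the deposited scale only. Of 9 sorting genes 6 (66.7%) had lower means and 0 passed the threshold in limma. At an unadjusted p under 0.05, 2 (22.2%) were lower and 1 (11.1%) higher, against 10.5% and 6.92% of bright clusters. Igf2r, the receptor that carries new hydrolases by their mannose 6-phosphate tag, averaged 8.78 ± 0.26 in PT2385 arrays and 9.42 ± 0.06 in vehicle arrays (SD, n = 3 each; difference -0.64, adjusted p = 0.0874). Sort1, an alternative sorting receptor, differed by 0.41 (adjusted p = 0.135). Of 19 autophagy genes 13 (68.4%) had lower means and 0 passed the threshold in limma, with 1 (5.26%) lower at an unadjusted p under 0.05, a share below that of all clusters. That gene, Sqstm1, the cargo receptor p62, averaged 10.32 ± 0.03 in PT2385 arrays and 10.79 ± 0.06 in vehicle arrays (SD, n = 3 each; difference -0.47, adjusted p = 0.0591). Gabarapl1, a gene for a protein of the autophagosome membrane, had 0.36 (adjusted p = 0.356).

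Averaged by role, all PT2385 arrays lay below all vehicle arrays for the V0 sector, the hydrolases and the membrane proteins, and the arrays overlapped for the V1 sector. The mean of the 10378 bright clusters was also lower in every PT2385 array, by less, with deviations of -0.0171, -0.0271 and -0.00876 in PT2385 arrays, against 0.00304, 0.0253 and 0.0246 in vehicle arrays. For the 4 V0 subunits the mean deviation was -0.123, -0.161 and -0.0440 in PT2385 arrays, against 0.119, 0.143 and 0.0653 in vehicle arrays. Deviations here are from each gene's 6-array average. The mean deviation of the 8 glycosidases, sulfatases and lipid hydrolases was -0.0577, -0.147 and -0.193 in PT2385 arrays, against 0.166, 0.134 and 0.0978 in vehicle arrays. That of the 6 membrane proteins was -0.0991, -0.126 and -0.0738 in PT2385 arrays, against 0.111, 0.108 and 0.0795 in vehicle arrays. For the 9 V1 subunits it was 0.158, -0.0695 and -0.102 in PT2385 arrays, against 0.0753, 0.000284 and -0.0616 in vehicle arrays, so these overlapped. The SD was larger in the PT2385 group in 24 of 36 members (66.7%) and in 7 of 13 V-ATPase members (53.8%), against 50.8% of all clusters and 56.5% of the bright ones. Over the 36 members the median SD was 0.153 in PT2385 arrays and 0.0954 in vehicle arrays. For the 13 V-ATPase members these medians were 0.118 and 0.109, and for the bright clusters 0.128 and 0.114.

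**Figure D4:**
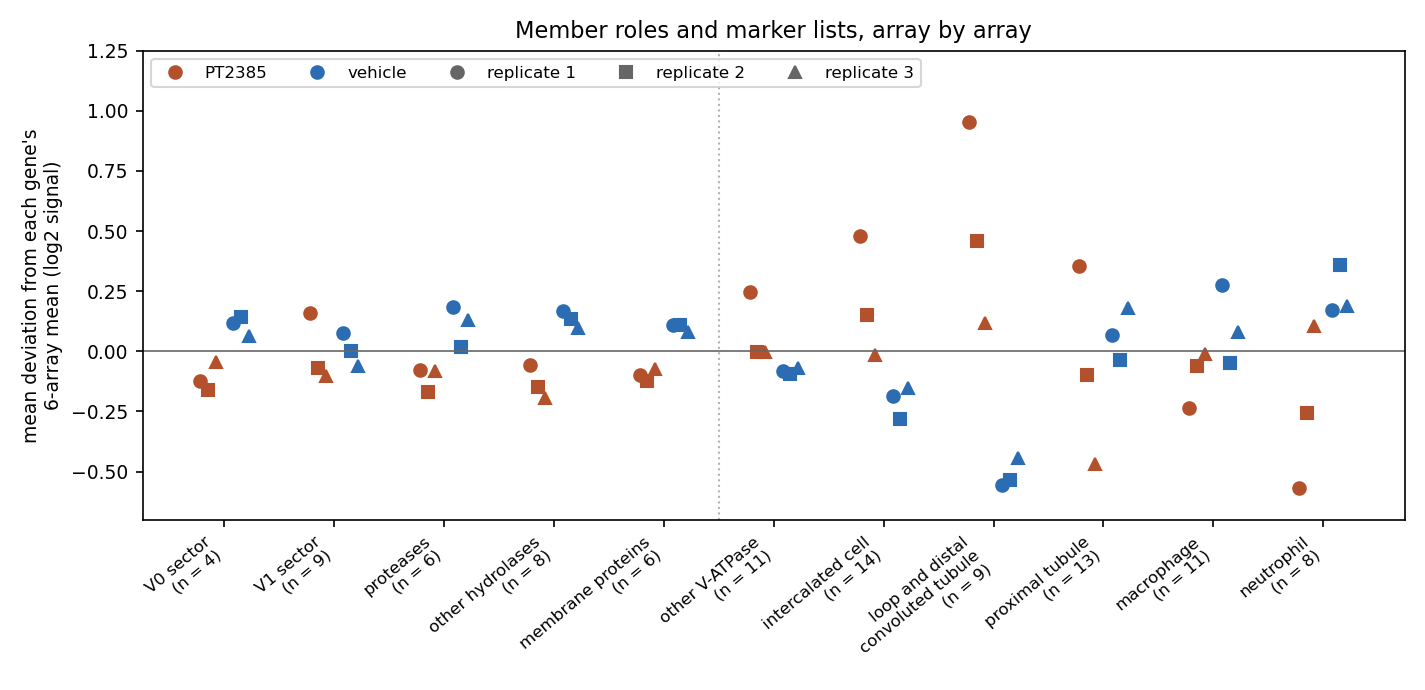
Mean deviation of the genes of each role or marker list from their own averages over the 6 arrays (y axis, log2 signal), 1 point per array, with PT2385 points left of vehicle points and replicates by marker shape. Proteases, other hydrolases and membrane proteins have all PT2385 points below the vehicle points, whereas the loop and distal markers run from 0.119 to 0.954 in PT2385 arrays and from -0.554 to -0.443 in vehicle arrays.

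Macrophages and neutrophils are rich in lysosomes, and some of their markers were lower in the PT2385 group. Of 11 macrophage markers 7 (63.6%) had lower means (median -0.02), against 46.5% of all clusters and 58.1% of the bright ones. The threshold was passed by 1 of them, against 0.829% of all clusters. At an unadjusted p under 0.05, 3 of the 11 (27.3%) were lower and 0 higher, against 6.54% and 7.94% of all clusters. The mean signal over the list was 6.27 to 6.50 in PT2385 arrays and 6.46 to 6.79 in vehicle arrays, so these ranges overlapped. The marker that passed was Lyz2, the lysozyme gene of myeloid cells (-1.19, SE 0.16, adjusted p = 0.0202). Of the other 10 markers, Itgam, an integrin gene of myeloid cells (-0.95, adjusted p = 0.0974), and Mrc1, the mannose receptor gene (-0.57, adjusted p = 0.294), had an unadjusted p under 0.05, and the remaining 8 lay between -0.09 (Csf1r) and 0.23 (C1qb). Of 8 neutrophil markers 6 had lower means and 1 passed, Csf3r, the receptor for granulocyte colony-stimulating factor (-1.04, SE 0.16, adjusted p = 0.0326). At an unadjusted p under 0.05, 4 of the 8 (50%) were lower and 0 higher, against 6.54% and 7.94% of all clusters. The neutrophil list had a mean signal of 4.53 to 5.20 in PT2385 arrays and 5.27 to 5.46 in vehicle arrays, without overlap. Of its 8 markers, 2 lay at or under the median of the negative controls. For every neutrophil marker, and every macrophage marker but Cd14, the lower group mean lay under the brightest background control value (7.47). That held for both genes past the threshold, Lyz2 (PT2385 mean 7.39) and Csf3r (5.60 in PT2385 arrays and 6.63 in vehicle arrays). The part of these cells in the lower lysosomal values was not tested.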

How the data were processed

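Total RNA of isolated tubular cells was hybridised to 6 Affymetrix whole-transcript arrays, per the labels' protocols. The authors deposited 1 summarised log2 signal per transcript cluster and array. The submitters' processing notes name Transcriptome Analysis Console. Its version, the background correction and the normalization are details not given in the sources used here. Of 28846 rows, 6640 control rows were left out and 22206 clusters were tested with no filter on dim signals. Symbols came from the platform annotation, updated through Entrez IDs against RefSeq (GRCm38.p6), which changed 0 symbols. A gene was represented by its brightest cluster over the 6 arrays, and 0 members had several.

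Groups were compared across all clusters with limma 3.58.1 in R 4.3.3 (lmFit and eBayes, treatment as the only term, 2-sided, Benjamini-Hochberg over all clusters, threshold 0.05), and the fit was tested on simulated data. Intervals are 95% intervals from the same fit. The number of arrays, 3 in each group, limits the precision. Background control rows ran from 2.41 to 7.47, and the highest array median of the negative controls was 4.47. The 36 members all had a mean above that median.

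The members and lists were chosen with earlier results of these data known, so no p is adjusted over a list and no list is tested as a set. Values of every array are given for the member past the threshold, for Tfeb and for the brightest and dimmest member of each role with 5 or more genes. Members with groups that did not overlap, and Neu1, Mcoln1, Gla and Atp6v1a, were added after their values were seen. From the other lists, genes past the threshold are named, or else the 2 with the smallest p. Itgam, Mrc1, Csf1r and C1qb were named after their values were seen. Atp6v0a4, Atp6v1g3, Atp6ap1 and Atp6ap2 were named for their roles, and Tcirg1, Atp6v0e2, Atp6v1e2 and Atp6v1g2 for their dim signal.

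No 2 arrays shared more than 0.234% of their cluster values, and each counted as its own sample.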

Additional observations from a re-analysis of the deposited data

How the results depend on the processing

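Under 15 alternatives, the 36 members gave 538 values, of which 495 kept their direction and their side of the threshold. Galns lost its call in 5 of the 6 fits without 1 array, and Lipa gained one without PT2385 replicate 1. Another 37 values, of 12 members, changed sign, and the primary differences of these members were at most 0.102 in size. Clusters past the threshold numbered 184, against 456 with array weights and between 42 and 179 when 1 array was left out (42 without PT2385 replicate 2, and 81, 65 and 72 without vehicle replicates 1, 2 and 3). Members past the threshold were 1, and 0 to 1 without 1 array. Members lower at an unadjusted p under 0.05 were 10, against 6 with cyclic loess and 4 to 13 without 1 array, and those higher were 1, and 0 to 2 without 1 array. The median difference of V-ATPase subunits, -0.05 in the primary fit, was -0.096 after median centring, -0.016 after quantile normalization, -0.00017 with cyclic loess and -0.11 with array weights, and that of hydrolases, -0.21, was -0.26, -0.17, -0.16 and -0.24 under the same settings. The V-ATPase median ranged from -0.16 to -0.021 and that of hydrolases from -0.27 to -0.17 without 1 array. That of membrane proteins, -0.17 in the primary fit, was -0.22 after median centring, -0.13 after quantile normalization, -0.14 with cyclic loess, -0.24 with array weights, -0.27 without the X and Y chromosomes, which leaves out Lamp2, and between -0.23 and -0.11 without 1 array. The causes of these moves were not tested. Sign changes were these. Median centring gave -0.043 for Atp6v1e1, -0.034 for Atp6v1f and -0.033 for Cln3. Quantile normalization gave 0.045 for Atp6v0e, 0.024 for Atp6v1d, 0.046 for Atp6v1h, 0.048 for Asah1 and 0.0006 for Lamp1, and cyclic loess gave 0.048 for Atp6v0e, 0.023 for Atp6v1d, 0.037 for Atp6v1h, 0.046 for Asah1 and 0.021 for Lamp1. Array weights gave -0.073 for Atp6v1e1, -0.011 for Atp6v1f and -0.056 for Tfeb. With 1 array left out, the differences of the members that changed sign there ran from -0.062 to 0.036 for Atp6v0e, -0.16 to 0.032 for Atp6v1a, -0.19 to 0.082 for Atp6v1d, -0.12 to 0.065 for Atp6v1e1, -0.051 to 0.043 for Atp6v1f, -0.035 to 0.00054 for Atp6v1h, -0.22 to 0.055 for Hexa, -0.20 to 0.0011 for Sgsh, -0.084 to 0.090 for Asah1, -0.044 to 0.027 for Lamp1 and -0.023 to 0.042 for Cln3. The causes of the sign changes were not tested. The replicate number as a block (replicate block) gave 178 calls over all clusters and the same 1 member, and changed no call of a member. The deviations of same-numbered arrays from their group means correlated by 0.138, 0.0252 and -0.0587 for numbers 1, 2 and 3, so the numbers were not taken as pairs. PT2385 replicate 3 correlated best with vehicle replicate 2 (0.236), not with its own number. No member had a second cluster, so that alternative was not run. With the 250 bases before the start alone, 6 members held the CLEAR core and 11 the E-box. Signal over background limits Atp6v1c2, Gla, Gusb, Sgsh, Npc1 and Galns, whose lower group mean lay under the brightest background control, and 3 arrays a group limit all.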
